A study of Mus musculus with 7 samples.

Results

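Genes of insulin and insulin-like growth factor (IGF) signalling were measured in pancreatic islets of pregnant mice that carried 1 or 2 intact copies of the prolactin receptor gene. The set holds 9 genes, chosen by name: the ligands Igf1 and Igf2, the receptors Insr, Insrr, Igf1r and Igf2r, and the docking or adaptor proteins Irs1, Irs2 and Grb10. All 9 were among the 19938 genes tested. Each was represented by the probe set annotated with its symbol alone, and by the one with the highest mean where a gene had several. Together the 9 genes had 11 such probe sets of the 35556 deposited.

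Per the labels, 4 female mice were heterozygous for a null allele of the prolactin receptor (PrlR+/-), and 3 female PrlR+/+ mice were the wild type controls. All 7 were on the C57BL/6 background, were mated at 12 to 16 weeks of age and were killed on day 15 of pregnancy. Islets of each mouse gave 1 Affymetrix array, so every value below is 1 animal. Values are log2 intensities, and a difference of 1 is a doubling of the signal. The comparison asks which islet transcripts differ in pregnant mice that lack 1 receptor allele. The null allele is not described as limited to beta cells, so other tissues of the mother may carry it too.

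Insulin and the IGFs act through receptor tyrosine kinases at the cell surface. The activated insulin receptor or IGF-1 receptor phosphorylates docking proteins of the IRS family, which recruit PI3 kinase and start the AKT, TOR and FOXO branch, while other adaptors feed the RAS and MAPK branch. In beta cells of mice this pathway is known for its part in beta cell growth and survival, with Irs2 needed for the beta cell mass to adapt. Grb10 binds the activated receptors and restrains them, and Igf2r removes IGF2 from the cell surface.

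Arrays were alike in their overall level, with a median gene value between 7.34 and 7.37. Beta cell markers averaged 11.89 to 12.15 in PrlR+/- and 12.03 to 12.20 in PrlR+/+ islets over 8 measured genes, among them Ins2 and Iapp. Acinar markers were also strong, at 11.87 to 12.27 in PrlR+/- and 11.69 to 12.08 in PrlR+/+ islets over 9 measured genes, so RNA of exocrine cells was present in every preparation. In such bulk samples, fewer cells of a type and less RNA per cell cannot be told apart. Of the remaining marker lists, alpha cell genes (3 measured) averaged 11.98 to 11.99 with PrlR+/- and 11.90 to 11.93 with PrlR+/+, delta cell genes (3) 10.72 to 11.19 and 10.66 to 11.12, and PP cell genes (2) 13.28 to 13.44 and 13.24 to 13.44. Lymphocyte genes (5 measured) averaged 6.00 to 6.29 with PrlR+/- and 5.95 to 6.12 with PrlR+/+, and Schwann cell or neuron genes (6) 7.34 to 7.52 and 7.34 to 7.40. The signal of the prolactin receptor gene was not analysed here, and genotypes were taken from the labels alone.

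None of the 9 genes passed the test of a difference between the genotypes. limma with Benjamini-Hochberg adjustment over all genes called 0 of 9 members, and over all genes it called 0, or 0% (smallest adjusted p = 0.99). At an unadjusted p under 0.05 there were also 0 of 9 members, where 2.2% of all genes passed, 1.07% of them higher and 1.13% lower in PrlR+/-. For 0 of 9 members did the groups separate without overlap, against 2.24% of all genes. Over 9 genes, counts of 0 are near these shares and do not set the members apart from other genes. The mean was higher in PrlR+/- for 7 members and lower for 2, with a median difference of 0.0975, while 55.8% of all genes had higher means and their median difference was 0.0142. For 7 of 9 members the 95% interval of the fold change lay within 1.5-fold in both directions. Igf1 and Irs2 were the exceptions, and 89.9% of all genes lay within this bound.

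**Figure D1:**
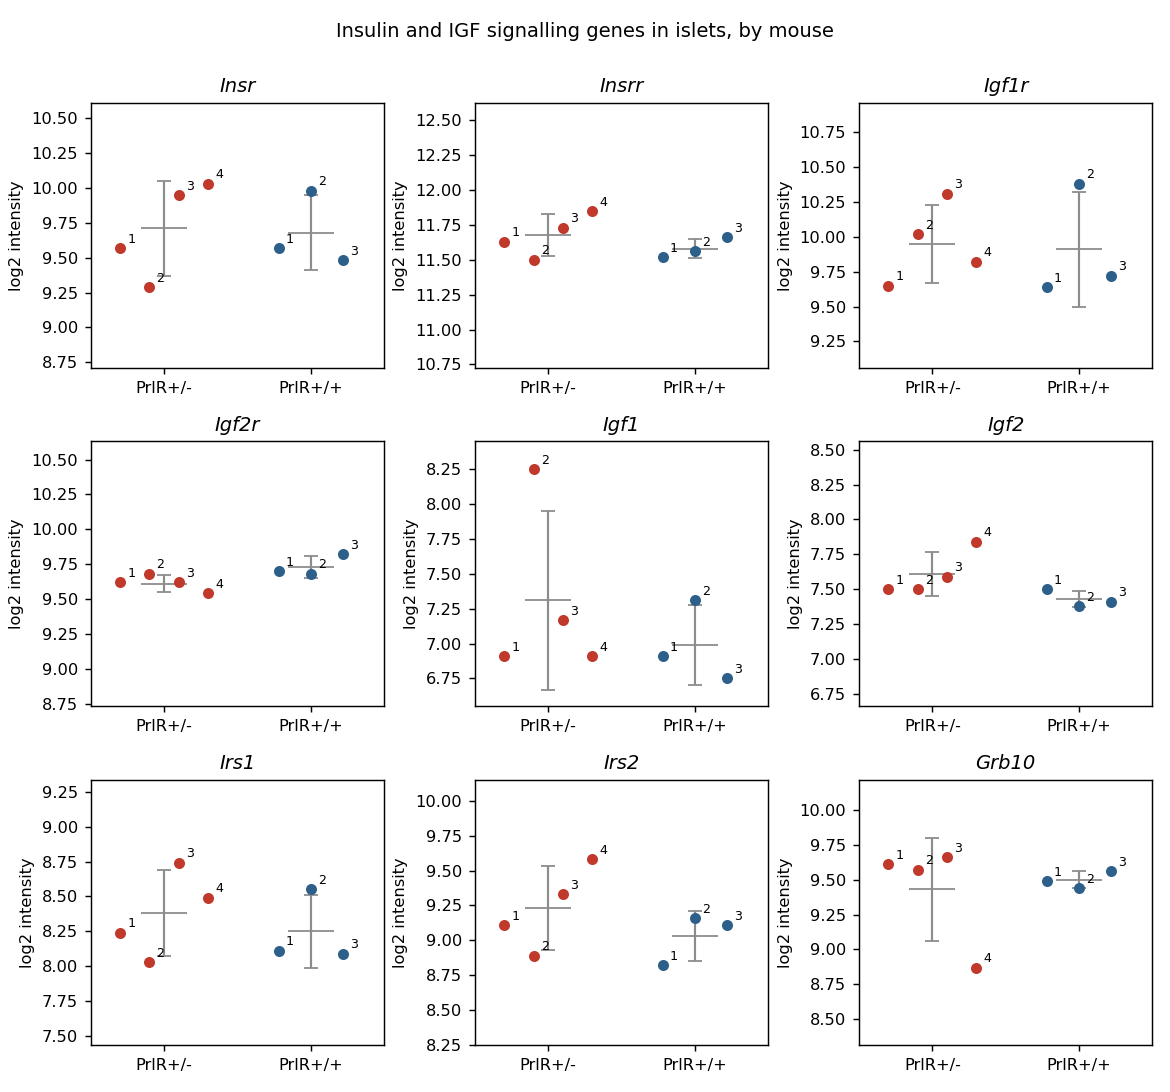
Log2 intensity (vertical axes, all of the same span) of the 9 genes in 4 PrlR+/- mice (red, left) and 3 PrlR+/+ mice (blue, right); points are mice, numbered by replicate, and grey bars are the group mean ± SD. The groups overlap or touch in every panel, and Igf1 in PrlR+/- 2 and Grb10 in PrlR+/- 4 stand away from the other mice.

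Among the ligands, Igf1, a growth factor made by liver and by many local cells, varied most. Its values were 6.91, 8.25, 7.17 and 6.91 in PrlR+/- islets and 6.91, 7.31 and 6.75 in PrlR+/+ islets. PrlR+/- 2 was the high mouse, and the other 3 PrlR+/- mice lay inside the PrlR+/+ range. The PrlR+/- mean was 7.31 ± 0.64 (SD, n = 4) and the PrlR+/+ mean 6.99 ± 0.29 (SD, n = 3), a difference of 0.32 ± 0.34 (SE), with a 95% interval of 0.72- to 2.15-fold (limma adjusted p = 0.99). Without PrlR+/- 2 the difference was 0.007 ± 0.16 (SE). The 7-mouse range of 1.5 log2 units was wider than that of 99.1% of all genes.

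The same mouse had the highest means of several lists of cell type markers. These included an endocrine list, the delta cell markers (11.19). For alpha cell (11.99) and PP cell (13.44) markers it was level with another mouse at the top. Acinar markers averaged 12.27 in PrlR+/- 2, against 11.87 to 12.05 in the other PrlR+/- mice and 11.69 to 12.08 in PrlR+/+ mice, with 8 of 9 measured markers higher in PrlR+/- as a group and the dimmest marker, Ptf1a, at a mean of 6.66. Endothelial markers averaged 9.70 in PrlR+/- 2 against 9.35 to 9.48 in the other 6 mice (6 of 9 markers higher in PrlR+/-). Stellate cell and fibroblast markers averaged 8.05 in that mouse, against 7.55 to 7.81 in the others (10 of 11 higher), and duct markers 7.77 against 7.39 to 7.58 (3 of 5 higher). Most of the height of the duct mean in PrlR+/- 2 comes from 1 of the 5 markers, Muc1. It was at 10.12 in that mouse and at 8.45 to 9.09 in the others. The duct mean without Muc1 was not computed, so the other duct markers are not shown to be highest in that mouse. Macrophage markers averaged 7.42 in PrlR+/- 2, against 7.30 to 7.36 in the other PrlR+/- mice and 7.05 to 7.38 in PrlR+/+ mice (8 of 11 higher). The dimmest marker of the endothelial, stellate, duct and macrophage lists averaged 7.58, 5.63, 3.86 and 5.37. Without PrlR+/- 2 the genotype difference of the list mean went from 0.16 to 0.07 for acinar and from 0.06 to -0.02 for endothelial markers. It went from 0.14 to 0.06 for stellate, from 0.11 to 0.04 for duct and from 0.09 to 0.07 for macrophage markers. The Igf1 difference, adjusted for the mean of the acinar markers, was -0.066 ± 0.171, and adjusted for that of the endothelial markers it was 0.095 ± 0.108 (SE). PrlR+/- 2 was highest for Igf1 and for both lists, so these adjustments cannot separate the markers from other traits of that mouse. The part of either list in the Igf1 value was not tested.

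Igf2, a fetal growth factor expressed from the paternal allele in most mouse tissues, had values of 7.50, 7.50, 7.59 and 7.84 in PrlR+/- islets and 7.50, 7.38 and 7.41 in PrlR+/+ islets. No PrlR+/- mouse lay below a PrlR+/+ mouse, and the groups met at 7.50, where 2 PrlR+/- mice and 1 PrlR+/+ mouse were level. The difference was 0.18 ± 0.10 (SE), or 1.13-fold with an interval of 0.97 to 1.32 (limma adjusted p = 0.99). The 2-sided exact permutation test over the 35 splits of the mice gave p = 0.171, where the smallest possible p is 0.0286. Without PrlR+/- 4, the highest mouse, the difference was 0.10 ± 0.056 (SE), and with array weights it was 0.099.

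Of the 4 receptors, Igf2r came closest to a separation of the genotypes. It encodes the cation-independent mannose 6-phosphate receptor, which carries IGF2 to the lysosome and is expressed from the maternal allele in most mouse tissues. Values were 9.62, 9.68, 9.62 and 9.54 in PrlR+/- islets and 9.70, 9.68 and 9.82 in PrlR+/+ islets. All 4 PrlR+/- mice lay below the PrlR+/+ mean, and PrlR+/- 2 and PrlR+/+ 2 were equal. The difference was -0.12 ± 0.06 (SE), or 0.92-fold with an interval of 0.83 to 1.02 (limma adjusted p = 0.99). The exact permutation p was 0.0857, and 6.89% of all genes had a smaller unadjusted limma p. Without PrlR+/+ 3 the difference was -0.075. Its range over the 7 mice, 0.28, was the narrowest of the 9 members.

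Insr encodes the insulin receptor. Its higher probe set, 10576692, was at 9.57, 9.29, 9.95 and 10.03 in PrlR+/- islets and at 9.57, 9.98 and 9.48 in PrlR+/+ islets. High and low mice occurred in both genotypes, and the difference was 0.03 ± 0.20 (SE), with an interval of 0.73- to 1.43-fold (limma adjusted p = 0.996) and a range of -0.073 to 0.185 when each mouse was left out. A second probe set of the gene, 10576696, gave 9.14, 9.05, 9.14 and 9.23 in PrlR+/- islets and 9.11, 9.43 and 9.14 in PrlR+/+ islets. There PrlR+/+ 2 was the high mouse and PrlR+/- 4 came next, and the difference had the other sign, -0.09 ± 0.09 (SE, adjusted p = 0.99). The annotation lists a shared RefSeq transcript for both, and which part of it each covers was not analysed here.

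Insrr, the insulin receptor-related receptor, is an orphan kinase of the same family that responds to alkaline pH and is known to be expressed in beta cells. It was at 11.63, 11.50, 11.73 and 11.85 in PrlR+/- islets and at 11.52, 11.56 and 11.66 in PrlR+/+ islets. PrlR+/- 4 was highest and PrlR+/- 2 lowest, so the PrlR+/+ range lay inside the PrlR+/- range. The PrlR+/- mean of 11.68 ± 0.15 (SD, n = 4) and the PrlR+/+ mean of 11.58 ± 0.07 (SD, n = 3) differed by 0.10 ± 0.09 (SE), an interval of 0.92- to 1.24-fold (limma adjusted p = 0.99). It was 0.04 without PrlR+/- 4, 0.157 without PrlR+/- 2 and 0.039 with array weights.

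Igf1r encodes the main signalling receptor for IGF1 and IGF2. Its values were 9.65, 10.02, 10.31 and 9.82 in PrlR+/- islets and 9.64, 10.38 and 9.72 in PrlR+/+ islets. The highest and the lowest mouse were both PrlR+/+, and the 4 PrlR+/- mice lay between them. The difference was 0.04 ± 0.22 (SE), an interval of 0.72- to 1.46-fold (limma adjusted p = 0.996). It was 0.27 without PrlR+/+ 2 and -0.10 without PrlR+/+ 1, and adjusted for the mean of the acinar markers it was -0.161 ± 0.183 (SE).

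**Figure D2:**
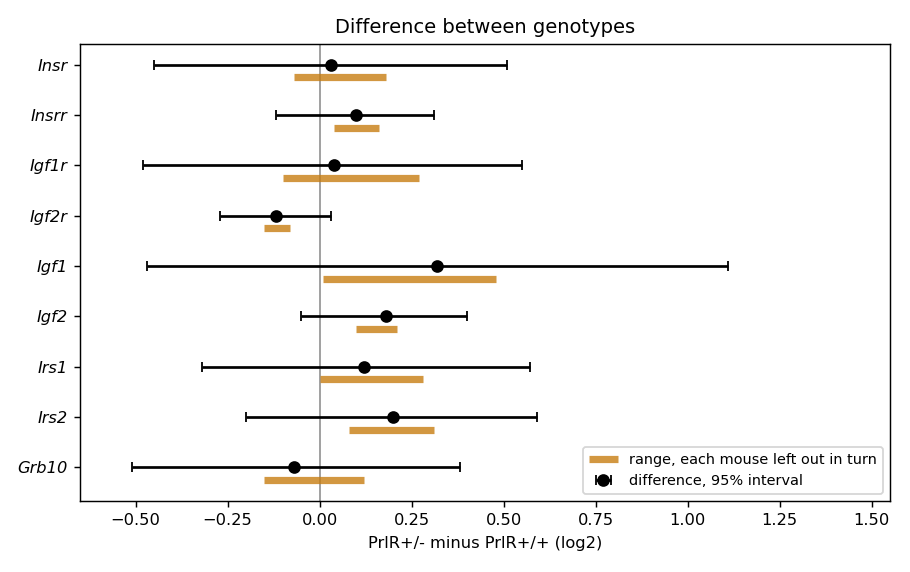
PrlR+/- minus PrlR+/+ difference in log2 intensity for each of the 9 genes (black point) with limma's 95% interval (black line), and the range of the difference when each of the 7 mice is left out in turn (orange bar). All 9 intervals include 0; Igf2r has the narrowest and Igf1 the widest, and the orange bars of Insr, Igf1r and Grb10 reach both sides of 0.

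The docking proteins Irs1 and Irs2 couple the insulin and IGF-1 receptors to PI3 kinase. Irs1 was at 8.24, 8.03, 8.74 and 8.49 in PrlR+/- islets and at 8.11, 8.55 and 8.09 in PrlR+/+ islets. PrlR+/- 3, PrlR+/+ 2 and PrlR+/- 4 were the high mice, and the genotypes overlapped. The difference was 0.12 ± 0.19 (SE), an interval of 0.80- to 1.48-fold (limma adjusted p = 0.99). It was 0.003 without PrlR+/- 3 and 0.275 without PrlR+/+ 2. A second Irs1 probe set, 10347792, lay between 4.41 and 4.81 on all arrays. That is below the lower quartile of genes on each array (5.62 to 5.82), and its difference was 0.02 ± 0.10 (SE).

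Irs2 was at 9.11, 8.89, 9.33 and 9.58 in PrlR+/- islets and at 8.82, 9.16 and 9.11 in PrlR+/+ islets. PrlR+/- 4 and 3 were the highest of all mice, while PrlR+/- 1 and 2 lay inside the PrlR+/+ range. The PrlR+/- mean was 9.23 ± 0.30 (SD, n = 4) and the PrlR+/+ mean 9.03 ± 0.18 (SD, n = 3), a difference of 0.20 ± 0.17 (SE), or 1.15-fold with an interval of 0.87 to 1.51 (limma adjusted p = 0.99). It was 0.08 without PrlR+/- 4, 0.093 without PrlR+/+ 1 and 0.31 without PrlR+/- 2.

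Grb10 is an adaptor that binds the activated insulin and IGF-1 receptors and dampens their signal, and it is imprinted in the mouse. Its values were 9.61, 9.57, 9.66 and 8.87 in PrlR+/- islets and 9.49, 9.44 and 9.56 in PrlR+/+ islets. PrlR+/- 4 was the low mouse, and the other 3 PrlR+/- mice were each above the highest PrlR+/+ mouse, by 0.10 or less. With all mice the difference was -0.07 ± 0.19 (SE, limma adjusted p = 0.99). Without PrlR+/- 4 it was 0.117 ± 0.054 (SE), with an unadjusted p of 0.074 and an adjusted p of 1. The mean of the 8 measured beta cell markers was also lowest in PrlR+/- 4, at 11.89 against 12.10 to 12.15 in the other PrlR+/- mice and 12.03 to 12.20 in PrlR+/+ mice. Delta cell markers averaged 10.72 in PrlR+/- 4, against 11.12 to 11.19 in the other PrlR+/- mice and 10.66 to 11.12 in PrlR+/+ mice. The part of either list in the Grb10 value was not tested.

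Promoter sequence was looked up for the 9 genes in RefSeq's GRCm38.p6 windows, which run from 250 bases before to 50 after a transcript start. Windows matched 7 members, 11 in all, with 4 for Igf2 and 2 for Grb10; Insr and Insrr had no match. STAT5, the factor the prolactin receptor activates, is known to bind TTCNNNGAA, and this was in 0 of the 11 windows, against 8.3% of the 32851 windows of all genes. The longer forkhead motif GTAAACA, on either strand, was also in 0 of 11 (3.65% of all windows). The forkhead core TGTTT, on either strand, was in 7 of 11 (50.5% of all windows). A match here is only a match of letters. The windows of the docking protein genes Irs1 and Irs2 are shown because their values were high and low in partly the same mice, and that of Igf1 because its values ranged most. Capitals mark TGTTT or its reverse complement AAACA. The Irs1 window is chr1:82291390-82291689 on the minus strand, that of Irs2 is chr8:11008880-11009179 on the minus strand, and that of Igf1 is chr10:87860861-87861160 on the plus strand.
Irs1: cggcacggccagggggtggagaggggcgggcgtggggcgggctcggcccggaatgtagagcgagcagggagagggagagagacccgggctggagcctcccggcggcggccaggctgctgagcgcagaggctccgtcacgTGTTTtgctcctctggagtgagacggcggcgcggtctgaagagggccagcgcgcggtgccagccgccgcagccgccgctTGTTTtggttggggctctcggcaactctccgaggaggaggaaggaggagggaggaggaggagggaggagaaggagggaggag
Irs2: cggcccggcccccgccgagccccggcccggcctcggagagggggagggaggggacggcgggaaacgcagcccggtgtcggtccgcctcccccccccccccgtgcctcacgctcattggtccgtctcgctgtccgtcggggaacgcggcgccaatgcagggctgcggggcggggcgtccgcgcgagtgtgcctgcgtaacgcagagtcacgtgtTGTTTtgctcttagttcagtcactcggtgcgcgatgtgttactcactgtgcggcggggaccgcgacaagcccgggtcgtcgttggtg
Igf1: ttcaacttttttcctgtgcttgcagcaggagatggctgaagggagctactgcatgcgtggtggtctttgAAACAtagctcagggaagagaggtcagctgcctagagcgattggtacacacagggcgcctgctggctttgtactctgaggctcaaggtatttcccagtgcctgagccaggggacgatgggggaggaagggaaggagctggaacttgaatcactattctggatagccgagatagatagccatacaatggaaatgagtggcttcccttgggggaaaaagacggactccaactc
The Irs1 and Irs2 windows are rich in G and C (71.3% and 72.0%) and hold 28 and 41 CG dinucleotides, and the Igf1 window has 52.3% and 6.

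The members also varied between mice of a genotype. The range over the 7 mice was wider than in 85% of all genes for 6 of the 9 members: Igf1 (1.5), Grb10 (0.79), Irs2 (0.76), Insr (0.74), Igf1r (0.74) and Irs1 (0.71). By contrast Igf2 (0.46), Insrr (0.35) and Igf2r (0.28) were nearer to the median range of all genes, 0.40. The 85% cut is only descriptive and lies in the gap between the members. The share of genes with a narrower range was 86.3% for Irs1 and 60.1% for Igf2. PrlR+/- 4 held the highest value for Insr, Insrr, Igf2 and Irs2 and the lowest for Igf2r and Grb10, so 6 members had an end of their range in that mouse. Over all genes the same mouse was highest, ties included, for 31.3% and lowest for 19.4%, more than any other mouse for the highest values. PrlR+/- 1 held no end of any member's range.

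Members were compared with each other across the mice. Correlations were computed for all 36 pairs of members over the 7 mice, with 2-sided exact permutation tests, and p-values were adjusted over the 36 pairs. Insrr and Irs2 were the closest pair, with Pearson's r = 0.94 (exact permutation p = 0.00238, adjusted p = 0.0857) and Spearman's rho = 0.85 (exact permutation p = 0.0238, adjusted p = 0.429). Without the 2 mice farthest from the Insrr median r was 0.83, and after removal of each genotype's mean it was 0.93. Some 0.1% of all genes followed Insrr as closely, and 0.261% followed Irs2 as closely.

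Insr and Irs1 came next, with r = 0.92 (exact permutation p = 0.0119, adjusted p = 0.214) and rho = 0.85 (p = 0.0238, adjusted p = 0.429). Without the 2 mice farthest from the Insr median r was 0.95. For Insr and Irs2 r was 0.79 (exact permutation p = 0.0337, adjusted p = 0.364) and rho was 0.79 (p = 0.0429, adjusted p = 0.48), with r = 0.75 without the 2 farthest mice. For Irs1 and Irs2 r was 0.73 (exact permutation p = 0.0635, adjusted p = 0.381) and rho 0.76 (p = 0.0571, adjusted p = 0.48), with r = 0.92 without 2 mice. Insrr and Igf2 had r = 0.78 (exact permutation p = 0.0405, adjusted p = 0.364) and rho = 0.52 (p = 0.26, adjusted p = 0.625), with r = 0.49 without 2 mice. Igf1r with Irs1 had r = 0.69 (exact permutation p = 0.0952, adjusted p = 0.407) and rho = 0.50 (p = 0.267, adjusted p = 0.625), and r = -0.14 without 2 mice. Igf1r with Irs2 had r = 0.25 (exact permutation p = 0.59, adjusted p = 0.759) and rho = 0.56 (p = 0.205, adjusted p = 0.607), and r = 0.03 without 2 mice. The shares of all genes that followed the first and the second gene at least as closely were 0.928% and 1.3% for Insr and Irs1. They were 6.06% and 5.92% for Insr and Irs2, 9.9% and 10.1% for Irs1 and Irs2, and 5.62% and 9.14% for Insrr and Igf2. For Igf1r with Irs1 they were 3.41% and 11.9%, and with Irs2 29.4% and 44.2%. Over all 36 pairs r was positive for 17. No pair passed after adjustment, and the values of a mouse share its array, its normalization and the cell makeup of its islets.

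The second Insr probe set followed Irs1 less closely in value, with r = 0.56 (exact permutation p = 0.181, adjusted p = 0.232 over 5 such relations) and rho = 0.70 (p = 0.0929, adjusted p = 0.155). Without the 2 mice farthest from its median r was 0.41. With Irs2 it had r = 0.40 (exact permutation p = 0.364, adjusted p = 0.364) and rho = 0.79 (p = 0.0405, adjusted p = 0.101), and r = 0.90 without 2 mice. The dim second Irs1 probe set had r = 0.57 with Insr (exact permutation p = 0.179, adjusted p = 0.232; rho = 0.50, p = 0.255, adjusted p = 0.255) and r = 0.65 without 2 mice. With the main Irs1 probe set it had r = 0.56 (exact permutation p = 0.186, adjusted p = 0.232; rho = 0.52, p = 0.24, adjusted p = 0.255) and r = 0.54 without 2 mice. The 2 Insr probe sets themselves had r = 0.71 (exact permutation p = 0.0429, adjusted p = 0.214) and rho = 0.82 (p = 0.0262, adjusted p = 0.101), with r = 0.71 without the 2 farthest mice. Whether the pairs differ in r was not tested. At the other end, Igf2r and Igf2 ran opposite to each other, with r = -0.79 (exact permutation p = 0.0548, adjusted p = 0.381) and rho = -0.74 (p = 0.0667, adjusted p = 0.48), and r = -0.54 without the 2 mice farthest from the Igf2r median. After removal of each genotype's mean r was -0.62 for this pair.

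**Figure D3:**
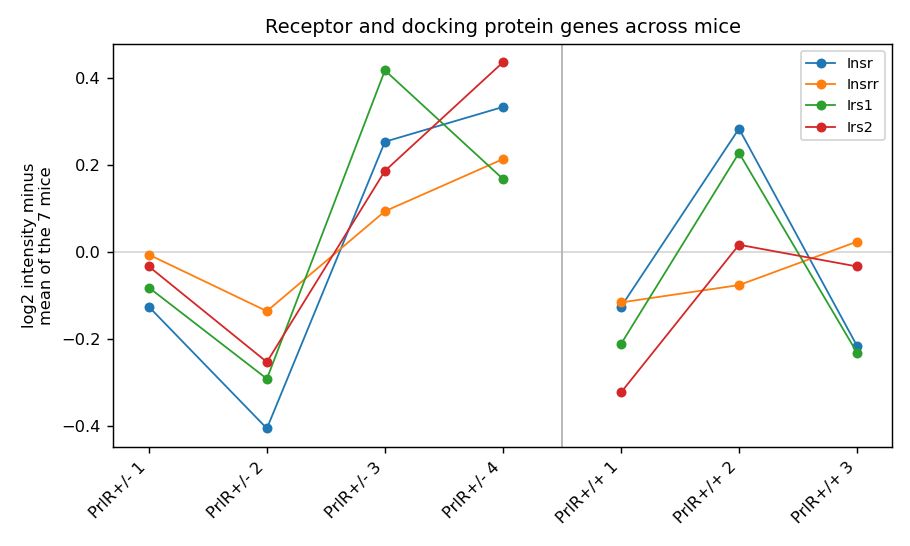
Log2 intensity minus the gene's mean over the 7 mice (vertical axis) for Insr, Insrr, Irs1 and Irs2 in 4 PrlR+/- and 3 PrlR+/+ mice (horizontal axis); lines only join the values of a gene within a genotype. All 4 genes are lower in PrlR+/- 2 and higher in PrlR+/- 3 and 4 than their means, and Insr and Irs1 are also high in PrlR+/+ 2.

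For the 3 members with the widest ranges, the genes with the most similar profile over the 7 mice were found. Likeness was the root mean square distance between profiles centred on their own means. A high or low mouse that such a gene shares with its member follows from this choice and is not a separate observation. Igf1 was closest to Muc1, a mucin gene and one of the duct markers, at a distance of 0.101 log2 units. Muc1 was at 8.95, 10.12, 8.95 and 8.73 in PrlR+/- islets and at 8.67, 9.09 and 8.45 in PrlR+/+ islets, so PrlR+/- 2 was again the high mouse. Muc1 is part of the duct marker mean given above, so the height of that mean is not a separate observation. Vtn, which encodes the plasma protein vitronectin, lay at 0.117 and Sardh, sarcosine dehydrogenase, at 0.137, and both were highest in PrlR+/- 2 too (9.75 and 7.93).

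Grb10 was closest to Tmem215 (0.052), Senp8 (0.058), a protease gene for the ubiquitin-like protein NEDD8, and Plcxd3 (0.063). Tmem215 was at 9.76 in PrlR+/- 4, against 10.28 to 10.45 in the other PrlR+/- mice and 10.22 to 10.40 in PrlR+/+ mice, the same single low mouse as for Grb10. Irs2 was closest to Prr29 (0.055), 4921533I20Rik (0.058) and Hrct1 (0.058). Prr29 was at 7.17, 7.10, 7.45 and 7.70 in PrlR+/- islets and at 7.02, 7.24 and 7.29 in PrlR+/+ islets, with PrlR+/- 4 highest.

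**Figure D4:**
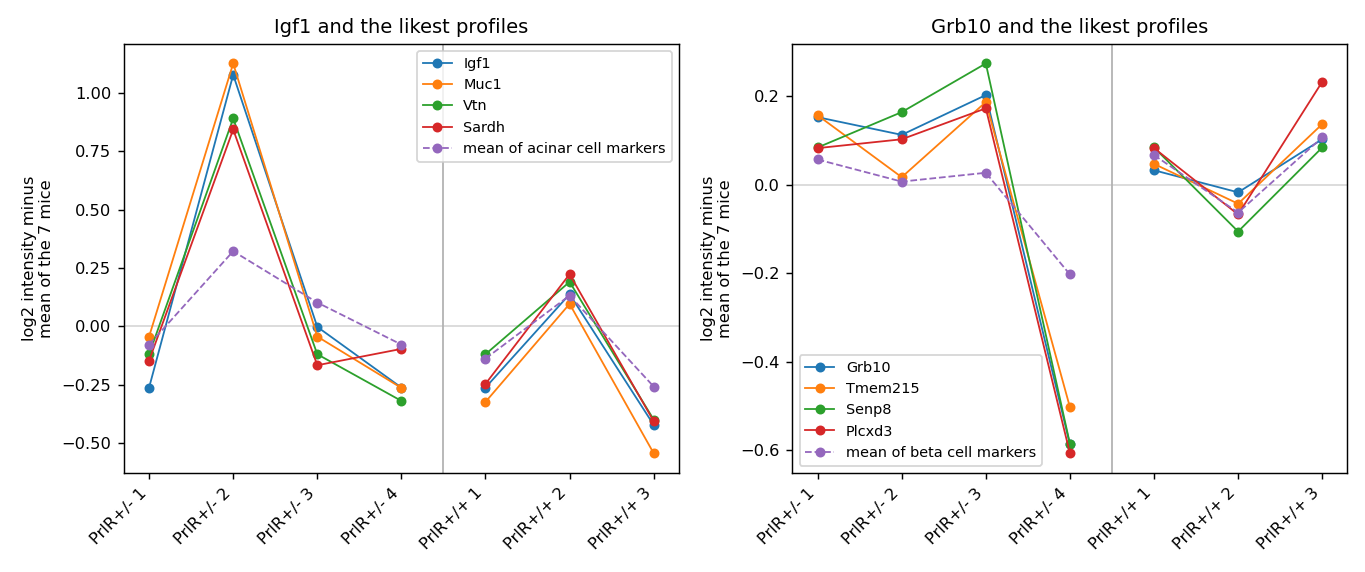
Log2 intensity minus the mean over the 7 mice (vertical axes) for Igf1 (left panel) and Grb10 (right panel) with their 3 most similar genes, and the mean of the acinar or beta cell markers (dashed), in 4 PrlR+/- and 3 PrlR+/+ mice. Igf1 and its neighbours peak in PrlR+/- 2, where the acinar mean is also highest. Grb10 and its neighbours are lowest in PrlR+/- 4, where the beta cell mean is also lowest. The neighbours were chosen for their likeness, so the shared mouse follows from the choice.

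The wider pathway was described with 8 lists of 104 genes, of which 90 were measured. limma called 0 of the 90. An unadjusted p under 0.05 was reached by 4 (4.44%, against 2.2% of all genes), and the groups did not overlap for 3 (3.33%, against 2.24%). Means were higher in PrlR+/- for 49 and lower for 41, with a median difference of 0.0121, close to the 0.0142 of all genes. Insulin itself was represented by Ins2. Its PrlR+/- mean was 13.29 ± 0.04 (SD, n = 4) and its PrlR+/+ mean 13.31 ± 0.04 (SD, n = 3), near the highest deposited value of 13.97, where a difference may be hidden.

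IGF binding proteins hold IGF1 and IGF2 outside the cell, and proteases of the pappalysin family cut the binding proteins and set the ligands free. Of 13 genes in this list 10 had higher and 3 lower means in PrlR+/-, with a median of 0.0708. Pappa2, a pappalysin that cuts IGFBP3 and IGFBP5, was at 10.55, 10.41, 10.42 and 10.51 in PrlR+/- islets and at 10.38, 10.02 and 9.86 in PrlR+/+ islets. Every PrlR+/- mouse lay above every PrlR+/+ mouse, although PrlR+/- 2 and PrlR+/+ 1 were only 0.03 apart.

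The Pappa2 mean was 10.47 ± 0.07 with PrlR+/- (SD, n = 4) and 10.09 ± 0.27 with PrlR+/+ (SD, n = 3). The difference was 0.39 ± 0.12 (SE), or 1.31-fold with an interval of 1.07 to 1.59, with a limma p of 0.0145 and an exact permutation p of 0.0286, the smallest possible. It did not pass over all genes (limma adjusted p = 0.99), and the difference was 0.27 to 0.53 with each mouse left out. Its relative Pappa, named after its values were seen, differed by 0.01 ± 0.07 (SE).

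Igfbp5, a substrate of Pappa2 named here after its values were seen, was at 9.81, 9.13, 10.27 and 9.77 in PrlR+/- islets and at 9.75, 10.76 and 10.37 in PrlR+/+ islets. The groups overlapped, and the difference of -0.55 ± 0.31 (SE) had an interval of 0.41- to 1.13-fold (limma adjusted p = 0.99). It was -0.82 without PrlR+/+ 1 and -0.31 without PrlR+/+ 2. Igfbp3, the other substrate, likewise named after its values were seen, had a PrlR+/- mean of 10.64 ± 0.55 (SD, n = 4) and a PrlR+/+ mean of 10.52 ± 0.47 (SD, n = 3), a difference of 0.11 that was -0.11 without PrlR+/- 4 and 0.38 without PrlR+/+ 2.

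Of 19 other docking and adaptor genes 12 had higher and 7 lower means in PrlR+/-, with a median of 0.0167. Sh2b1, an adaptor that enhances signalling of the insulin receptor and of JAK2, was at 8.23, 8.35, 8.36 and 8.47 in PrlR+/- islets and at 8.19, 7.98 and 8.23 in PrlR+/+ islets. PrlR+/- 1 and PrlR+/+ 3 were level and the other mice separated by genotype, with a difference of 0.22 ± 0.09 (SE, limma p = 0.0375, adjusted p = 0.99, exact permutation p = 0.0857). Without PrlR+/+ 2 it was 0.14. Grb7, of the same adaptor family as Grb10, differed by 0.16 ± 0.07 (SE, limma p = 0.0458, adjusted p = 0.99, exact permutation p = 0.0857), with values of 9.78 to 9.98 in PrlR+/- and 9.66 to 9.78 in PrlR+/+ islets. Gab1, a docking protein of several receptor kinases, named after its values were seen, was at 8.29 to 8.44 in PrlR+/- and 8.22 to 8.28 in PrlR+/+ islets, without overlap (difference 0.12 ± 0.06, SE, exact permutation p = 0.0571, limma adjusted p = 0.99). Grb14, also of this family and named after its values were seen, differed by 0.02 ± 0.13 (SE).

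Downstream of the docking proteins, 9 of 26 genes of PI3 kinase, AKT, TOR and FOXO had higher and 17 lower means in PrlR+/-, with a median of -0.0179. Pik3r3, a regulatory subunit of PI3 kinase, was at 9.35, 9.08, 9.34 and 9.05 in PrlR+/- islets and at 9.43, 9.55 and 9.38 in PrlR+/+ islets. All PrlR+/- mice lay below all PrlR+/+ mice, with the nearest 0.03 apart, and the difference was -0.25 ± 0.10 (SE), or 0.84-fold with an interval of 0.72 to 0.99 (limma p = 0.039, adjusted p = 0.99, exact permutation p = 0.0857). The other genes of this list lay between -0.26 and 0.15.

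No gene of the remaining lists reached an unadjusted p under 0.05. In the RAS and MAPK arm, with 4 measured genes and a median of 0.00625, Nras had the smallest p (-0.11 ± 0.08, SE, limma p = 0.224, exact permutation p = 0.257). Among 14 restraints of the pathway, 5 were higher and 9 lower (median -0.055), and Trib1, a pseudokinase gene, differed by -0.32 ± 0.16 (SE, limma p = 0.0901, exact permutation p = 0.171). Of the IGF2 mRNA binding proteins Igf2bp3 differed by 0.10 ± 0.06 (SE, limma p = 0.154, exact permutation p = 0.0857). Of 11 imprinted growth genes 9 were higher and 2 lower (median 0.045), and Plagl1, a zinc finger factor of an imprinted gene network, differed by -0.19 ± 0.10 (SE, limma p = 0.106, exact permutation p = 0.2). Leaving out 1 PrlR+/+ mouse moved these differences to -0.04 for Nras (without 1), -0.14 for Trib1 and 0.06 for Igf2bp3 (both without 2) and -0.11 for Plagl1 (without 3).

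**Figure D5:**
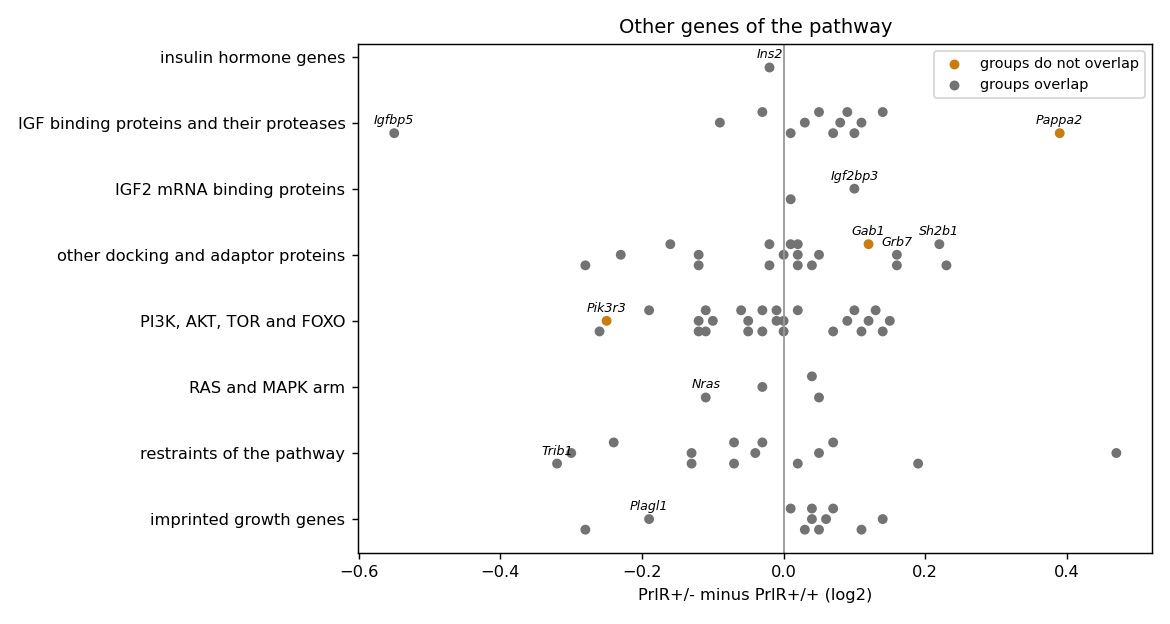
PrlR+/- minus PrlR+/+ difference in log2 intensity (horizontal axis) of the 90 other measured genes, 1 point a gene, in 8 lists (rows; vertical scatter within a row only separates points). Points where the groups do not overlap are orange (Pappa2, Gab1 and Pik3r3), and each list is spread on both sides of 0 or lies close to it.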

How the data were processed

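The authors deposited log2 values with 2 decimals, 1 array per mouse, between 1.73 and 13.97. That they are log2 was inferred from this range. Affymetrix Expression Console 1.2.0.20 is named in the submitters' processing notes. How background was corrected and arrays normalized is not stated in any source used here, and scan dates were not analysed here. Per the labels, 250 ng of RNA with an integrity number above 8.5 was labelled. Arrays have no read depth, and their number limits the precision.

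Of the probe sets, 21789 had 1 symbol in the platform annotation; those with several (1621) or none (12146) were left out. Groups came from the source labels. In R 4.3.3, lmFit and eBayes of limma 3.58.1 fitted all genes, as PrlR+/- minus PrlR+/+. Tests were 2-sided, a gene was called at a Benjamini-Hochberg adjusted p under 0.05, and the steps were tested on simulated data. Summaries used pandas 2.3.3 and scipy 1.17.1 in Python 3.11.15. Named were all members with their probe sets, of each pathway list the genes with an unadjusted p under 0.05 or, failing that, the one with the smallest p, the insulin gene measured, and the 3 genes nearest in profile to each of the 3 members with the widest range. Exceptions are stated. Members and lists were chosen with earlier results of these data known. Of the listed genes, 14 were not analysed here. Alternatives were 2 variance models, array weights, 2 normalizations, a filter at the 40th percentile, the mean or the other probe set of a gene, 2 marker covariates, the replicate number as a block, a threshold of 0.1 and leaving out each mouse.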

Additional observations from a re-analysis of the deposited data

Results flagged for a closer look

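Of 20 members, second probe sets and named genes examined in the 4 PrlR+/- mice, 1 had a mouse far from the other 3. Grb10 was at 8.87 in PrlR+/- 4, 0.70 below the next mouse, and this gap was 0.886 of the group's whole range, above Dixon's 95% critical value for 4 samples. Chance alone passes this limit in about 1 in 20 groups.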

How the results depend on the processing

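Over all alternatives run, 155 values of the 9 members were computed and 0 were called, with a smallest adjusted p of 0.818 and a smallest unadjusted p of 0.0447, both for Igf2r with array weights (-0.132). The direction was kept in 139 of the 155. Many of these values could not change direction, so this count overstates how stable the directions are. The variance models and the filter left the difference of every member as it was. The mean of the probe sets of a gene changed only Insr and Irs1. Insrr, Igf2r, Igf2, Irs1 and Irs2 stayed on their side of 0, but by as little as 0.003 for Irs1 (without PrlR+/- 3), 0.08 for Irs2 (without PrlR+/- 4), and 0.039 for Insrr and 0.099 for Igf2 (array weights; 0.04 and 0.10 without PrlR+/- 4). Of the 16 exceptions, 8 arose with all mice kept. They were Insr with the mean of its probe sets (-0.027), with the replicate block (-0.073) and with its other probe set (-0.087), Igf1r with the acinar (-0.161) or endothelial (-0.03) covariate, Igf1 with the acinar covariate (-0.066), and Grb10 with array weights (0.033) and with the replicate block (0.117). The rest arose when 1 mouse was left out. They were Insr without PrlR+/- 3, PrlR+/- 4, PrlR+/+ 1 or PrlR+/+ 3, Igf1r without PrlR+/- 3, PrlR+/+ 1 or PrlR+/+ 3, and Grb10 without PrlR+/- 4. With each mouse left out in turn the differences were -0.073 to 0.185 for Insr, -0.10 to 0.27 for Igf1r, 0.007 to 0.48 for Igf1, 0.04 to 0.157 for Insrr, -0.145 to -0.075 for Igf2r, 0.10 to 0.213 for Igf2, 0.003 to 0.275 for Irs1, 0.08 to 0.31 for Irs2 and -0.147 to 0.117 for Grb10. The median of the 9 differences lay between 0.052 and 0.137 under the other alternatives and between 0.003 and 0.185 with each mouse left out. In all alternatives 0 genes were called over the whole array. Same-numbered mice of the genotypes did not deviate together (r = 0.0896, -0.386 and -0.0287 across genes), and none of PrlR+/- 1 to 3 matched its own number best. So few pairs cannot show whether same-numbered mice were handled together. Under the replicate block 0 genes were called. Only PrlR+/- has a replicate 4, so the block gave every member the same difference as leaving out PrlR+/- 4. It is therefore not a separate check of the differences. What the remaining differences between settings come from was not tested. Signal over background was not given, so values near the floor or the top may hide differences.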

Other observations

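Some genes of the lists varied widely between mice and were not called between genotypes, and they are given here after their values were seen. Mest, an imprinted gene of the hydrolase fold family, was at 8.78, 8.70, 7.49 and 7.04 in PrlR+/- islets and at 9.16, 7.55 and 8.15 in PrlR+/+ islets, a range of 2.12, with a difference of -0.28 ± 0.54 (SE) that was -0.65 to 0.15 with each mouse left out. Trib3, a stress-induced pseudokinase gene that binds AKT, was at 8.02 in PrlR+/- 3, against 6.98 to 7.19 in the other PrlR+/- mice and 6.49 to 7.27 in PrlR+/+ mice (difference 0.47 ± 0.29, SE, limma adjusted p = 0.99, and 0.23 without PrlR+/- 3). Airn, the imprinted antisense RNA that overlaps Igf2r, was at 9.75 to 10.39 in PrlR+/- and 9.27 to 10.37 in PrlR+/+ islets, a difference of 0.07 ± 0.27 (SE), and -0.24 to 0.31 with each mouse left out. The interval of the fold change was 0.34 to 1.97 for Mest, 0.86 to 2.24 for Trib3 and 0.68 to 1.63 for Airn. Differences between the genotypes are therefore not excluded for these genes.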
